A study of Mus musculus with 3 samples.

Results

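The hair follicle stem cell genes described here are 10 genes known for marking or maintaining the stem cells of the mouse hair follicle: Sox9, Lhx2, Tcf7l1, Nfatc1, Foxc1, Cd34, Lgr5, Lgr6, Lrig1 and Gli1. They were chosen by name, and their probes were found through the RefSeq transcript given for each probe, which gave 13 of the 55681 probes and 10 of the 19752 named genes. Lrig1, Cd34 and Nfatc1 had 2 probes each and the other 7 genes had 1. The question was whether the epithelial RNA present in sorted skin macrophages carried the transcripts of follicle stem cells.

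The study asked how skin-resident macrophages differ as hair follicles pass through the resting phase (telogen) towards growth (anagen). CD11b+Gr1-F4/80+ cells were isolated by fluorescence-activated cell sorting (FACS) from the backskin of CD1 mice, an outbred stock, with no treatment or transgene named for any of the groups. RNA from littermates was pooled at each stage, and the labels give postnatal day 42 for early telogen (Te), day 55 for mid telogen (Tm) and day 69 for late telogen (Tl). The study's text puts Te slightly later than the label does. Each stage was 1 one-colour Agilent array, so differences between stages have no replicate check and are given without p-values. The spread between mice was not measured.

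Levels are log2 signals relative to the 75th percentile of their own array, so a level of 0 is a probe as bright as that percentile and a difference of 1 is a 2-fold difference. A probe counted as well above background where the scanner software flagged a share of at least 0.5 of its spots so. Below that a level is only a bound, and the other array's excess over the dimmest detected signal is given as "at least". The only error within an array came from probes spotted repeatedly. Its median standard deviation (SD) was 0.13 on the P42 array, 0.11 on P55 and 0.12 on P69, and the SD of a difference from P42 was 0.17 for either later array. The scanner software's own error of a member's difference lay between 0.20 and 0.33. Both errors leave out the spread between animals, between pools and between amplifications.

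The sorted cells carried the macrophage label in their RNA. All 13 macrophage genes on the array were well above background on all 3 arrays, with Adgre1, which encodes F4/80, at 4.83, 5.51 and 5.15 and Itgam, which encodes CD11b, at 8.95, 8.73 and 7.85. These Itgam levels are from the brightest of its 3 probes. The others were dimmer, at 4.55, 3.49 and 3.76 and at 2.64, 1.57 and 2.51. The arrays differed in sensitivity: 77.6% of genes were well above background on P42, 70.4% on P55 and 77.0% on P69. The deposited value table and the scanner files assign the later arrays oppositely. The table's P55 column matched the P69 scan, with 99.8% of 36409 probes within 0.05 log2, and its P69 column matched the P55 scan equally closely. The scanner files were followed here, and under the table's assignment every P55 and P69 value below changes places.

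The bulge is the part of the resting follicle where its stem cells stay quiescent, held there by transcription factors that keep the cells undifferentiated and by low Wnt and high BMP signalling. The hair germ below it is activated first when growth begins, while the isthmus and junctional zone above it hold further stem cells that serve the upper follicle and the sebaceous gland. Several of the genes also act outside the follicle: Nfatc1 in osteoclasts and endothelium, Cd34 in endothelium and blood progenitors, Gli1 in dermal mesenchyme and Foxc1 in vessels. In bulk RNA, fewer cells of a type and less RNA per cell cannot be told apart.

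Of the 10 genes, 7 were well above background on the P42 array, 9 on P55 and 10 on P69, and 7 were so on all 3, where 66.1% of all genes were. On both later arrays Sox9, Lhx2, Foxc1, Lrig1 and Gli1 were at least 2-fold higher than on P42, and Lgr6 was more than 2-fold lower. Some of these calls ended under another setting. Sox9 was under 2-fold on both arrays with the normexp background correction (0.52 and 0.39) and on P55 with scaling over detected probes (0.92). Foxc1 on P69 was 0.93 with normexp, and Lhx2 on P69 was 0.998 over detected probes. Lgr6 was -0.69 on P55 with scaling to the array median, and -0.99 and -0.70 without scaling. In the reported setting the count on P55 was 5 of the 9 genes with a value, beside 29.2% of all genes higher by 2-fold or more, and 1 lower beside 16.8%. On P69 it was 5 of 10 beside 22.4% higher, and 1 lower beside 20.5%. Of all genes, 15.9% were higher on both later arrays and 10.7% lower on both. Both comparisons use the same P42 array, so a deviation of that array enters both. Sox9, Foxc1 and Lgr5 had a value only because a later array detected them, and could only come out higher.

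**Figure D1:**
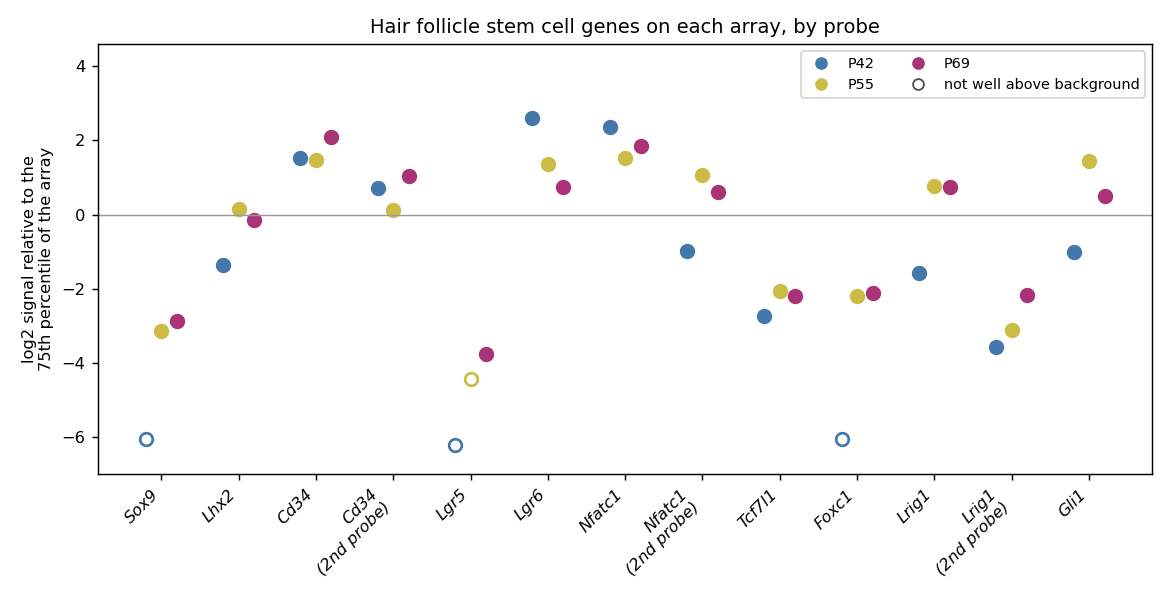
Level of each probe of the 10 genes on the P42 (Te), P55 (Tm) and P69 (Tl) arrays, as log2 signal relative to the array's 75th percentile; each point is 1 array and open points were not well above background. Sox9, Foxc1 and Lgr5 have open points on P42, Lgr6 steps down from 2.61 to 0.75, and the 2 probes of Nfatc1 run in opposite directions.

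Of the 6 genes matched to RefSeq windows, the starts of the 4 that differed from P42 by 2-fold or more on both later arrays are shown: Foxc1, Lrig1 and Lhx2 were higher and Lgr6 was lower. Each line is the 250 bases before a RefSeq transcription start (GRCm38.p6), 5′ to 3′ on the gene's strand, with motif matches in capitals.
Foxc1, chr13:31806396-31806645, plus strand: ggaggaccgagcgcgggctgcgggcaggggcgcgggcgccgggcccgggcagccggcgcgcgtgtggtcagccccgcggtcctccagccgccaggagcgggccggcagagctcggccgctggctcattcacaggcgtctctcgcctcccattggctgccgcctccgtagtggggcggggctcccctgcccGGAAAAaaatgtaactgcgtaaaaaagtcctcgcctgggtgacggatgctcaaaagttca
Lrig1, chr6:94700146-94700395, minus strand: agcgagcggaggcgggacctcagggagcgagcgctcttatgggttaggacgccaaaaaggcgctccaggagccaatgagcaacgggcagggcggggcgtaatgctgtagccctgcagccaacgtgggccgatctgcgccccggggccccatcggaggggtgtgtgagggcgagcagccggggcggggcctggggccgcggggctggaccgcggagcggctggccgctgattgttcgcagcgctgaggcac
Lhx2, second start, chr2:38351058-38351307, plus strand: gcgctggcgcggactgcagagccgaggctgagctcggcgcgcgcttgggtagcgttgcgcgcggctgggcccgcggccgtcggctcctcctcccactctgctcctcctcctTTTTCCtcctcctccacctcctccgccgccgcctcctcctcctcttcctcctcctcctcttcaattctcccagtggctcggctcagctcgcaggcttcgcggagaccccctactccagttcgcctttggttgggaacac
Lgr6, chr1:135105277-135105526, minus strand: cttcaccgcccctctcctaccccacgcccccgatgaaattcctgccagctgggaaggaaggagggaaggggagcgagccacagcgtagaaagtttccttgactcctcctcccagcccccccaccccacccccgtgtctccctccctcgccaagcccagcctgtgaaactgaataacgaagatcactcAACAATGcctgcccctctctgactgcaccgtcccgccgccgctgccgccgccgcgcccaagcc
The motifs searched on both strands were CTTTGAT (TCF/LEF), GACCACC (GLI), AACAATG (SOX), TAATTA (LIM homeodomain), GGAAAA (NFAT) and GTAAACA (forkhead). Counted from the start, the NFAT letters occurred at -60 in the Foxc1 window and, on the other strand as TTTTCC, at -139 in the second Lhx2 window. The SOX letters occurred at -63 in the Lgr6 window, and no matches overlapped. The NFAT letters are common, standing in 20.4% of 32851 windows of the same length, whereas the SOX letters stood in 3.29%, TCF/LEF in 3.21%, GLI in 2.34%, LIM homeodomain in 4.84% and forkhead in 3.17%. None of the 6 motifs occurred in the Lrig1 window, the first Lhx2 window, or those of Cd34 and Tcf7l1. The printed windows were rich in GC, from 65.2% for Lgr6 to 71.6% for Lrig1, against a median of 52.4% over all windows. Cd34 stood apart at 46.4%. A match is a description of letters, not a binding site.

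Among the transcription factors, Foxc1 had the largest lower bound. Foxc1, a forkhead factor that keeps activated bulge cells able to return to quiescence, was not well above background on P42 (-6.05) and reached -2.20 on P55 and -2.12 on P69. It was at least 4.73-fold higher on P55 and at least 5.01-fold higher on P69. The later arrays differed by 0.08, within the spot error.

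Sox9, an HMG-box factor needed to form and keep the bulge, stood at -6.06 on P42, where it was not well above background, and at -3.14 on P55 and -2.87 on P69. It was at least 2.46-fold higher on P55 and at least 2.98-fold higher on P69. Its probe is spotted repeatedly, so its error could be read on each array. On P42, 0 of 9 spots were well above background and they ranged from -6.53 to -5.54 (SD 0.40). On P55 all 9 were, from -3.64 to -2.90 (SD 0.27), and on P69 all 7 kept spots were, from -2.95 to -2.82 (SD 0.04). No P42 spot reached any later spot, and the ranges of P55 and P69 overlapped. These spots repeat 1 RNA pool and measure the array, not the mice.

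**Figure D2:**
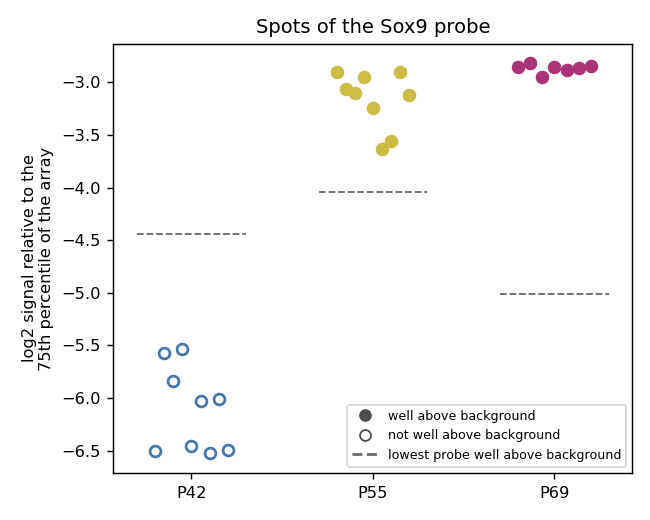
Every spot of the Sox9 probe on each array, as log2 signal relative to the array's 75th percentile; each point is 1 spot. The P42 spots lie between -6.53 and -5.54 and all later spots lie at -3.64 or higher.

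Lhx2, a LIM homeodomain factor that restrains bulge cells from activation, was detected on all 3 arrays, at -1.35 on P42, 0.15 on P55 and -0.15 on P69. It was 2.82-fold higher on P55 and 2.30-fold higher on P69. The later arrays lay close together, 0.29 apart. Tcf7l1, also called TCF3, a repressor of Wnt target genes in the bulge, stood at -2.73, -2.05 and -2.20. Its differences from P42 of 0.68 and 0.53 were over the spot error but under 2-fold.

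Nfatc1, a calcium-regulated factor of bulge quiescence, gave opposite answers by probe. Its brighter probe stood at 2.36 on P42, 1.53 on P55 and 1.85 on P69, differences of -0.83 and -0.51. Its other probe, assigned to a different RefSeq transcript, stood at -0.97, 1.07 and 0.62, which was 4.11-fold higher on P55 and 3.02-fold higher on P69. The direction of Nfatc1 as a gene was therefore not settled, and it is counted above by its brighter probe.

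**Figure D3:**
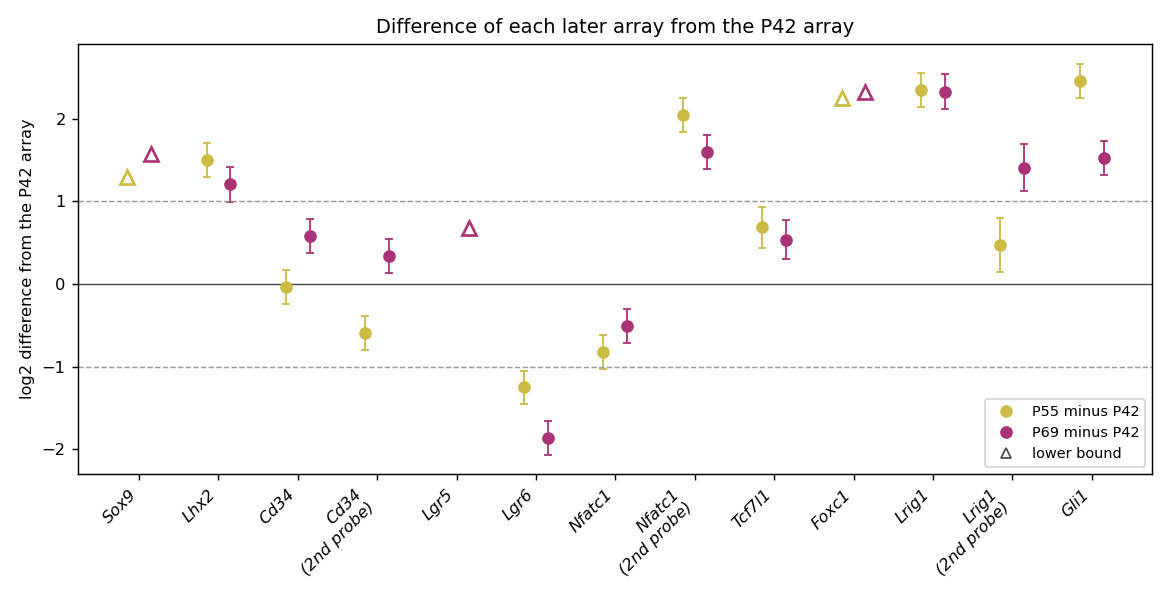
Difference of the P55 and P69 arrays from P42 for each probe, on the log2 scale; bars are the scanner software's error on 1 array pair, not replicate error, open triangles are lower bounds, and dashed lines mark 2-fold. Gli1 and Lrig1 lie highest among measured probes of P55, near 2.46 and 2.35, and Lgr6 lies below -1 on both arrays.

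Of the surface proteins, the R-spondin receptors differed. Lgr6, which marks stem cells of the isthmus, was at 2.61 on P42, 1.36 on P55 and 0.75 on P69, in descending order. It was 2.38-fold lower on P55 and 3.63-fold lower on P69, and the later arrays were 0.61 apart. Lgr5, the receptor of the lower bulge and hair germ, was not well above background on P42 (-6.21) or P55 (-4.44) and reached -3.77 on P69. It was at least 1.60-fold higher on P69 than on P42, and had no usable difference on P55. Lgr4, the broadly expressed receptor of the same family, differed by 0.56 on P55 and 0.98 on P69, both under 2-fold.

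Lrig1, a transmembrane inhibitor of EGF receptor signalling in the junctional zone, was at -1.58 on P42 and at 0.77 and 0.75 on the later arrays. By this probe it was 5.08-fold higher on P55 and 5.01-fold higher on P69. Its dimmer probe, at -3.58, -3.11 and -2.18, differed by 0.47 and 1.40, so both probes were higher on both later arrays but by different amounts, and the dimmer probe was under 2-fold on P55.

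Cd34, a surface sialomucin used to sort bulge cells, hardly differed on P55. It stood at 1.52 on P42, 1.48 on P55 and 2.10 on P69, differences of -0.03 and 0.58. Its other probe stood at 0.71, 0.11 and 1.05, differences of -0.60 and 0.34. The probes therefore gave P69 as the brightest array and no 2-fold difference from P42.

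Gli1, the transcription factor that Hedgehog signalling both acts through and induces, was the member with the largest measured difference on P55. It stood at -1.02 on P42, 1.44 on P55 and 0.50 on P69. It was 5.50-fold higher on P55 and 2.87-fold higher on P69, and P69 lay 0.94 below P55. The Hedgehog list, which leaves out Gli1, had no shared direction: 3 of its 10 genes with a value were at least 2-fold higher on P55 and 2 lower, and 2 of 11 higher and 4 lower on P69. Its median was -0.12 on P55 and -0.50 on P69. Smo, counted as lower on P69, differed by -0.45 and -1.10 on its brighter probe but by 0.99 and 1.61 on the other. The receptor Ptch1, another Hedgehog target, differed by 0.31 and 0.92. Gli2 differed by 1.15 and -0.25, and the ligand Shh was flagged as well above background on none of the 3 arrays. Cdon, a co-receptor, was higher by 2.89 and 2.76, whereas Boc, its relative, was lower, at -1.81 and -1.99.

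Across the 10 genes the median difference was 1.30 on P55 (9 with a value) and 0.94 on P69 (10), bounds included, against 0.23 and 0.16 over all genes. Over the members measured on both arrays it was 0.68 and 0.58, against 0.39 and 0.21 over all genes so measured. Directly compared, P69 and P55 differed by 2-fold or more for 0 of the 10 genes, where 7.77% of all genes were higher and 10.8% lower on P69. The 2-fold counts depended on scaling: on P69, 8 members were higher with the array median or no scaling, and 3 with the normexp background correction. Leaving out the bounds gave 3 on each later array. No share of all genes stands beside these counts, so they cannot be set against a background. The P69 median over all genes was 0.66 with the array median, 1.33 unscaled and 0.04 with normexp. At 1.5-fold, 6 members were higher and 2 lower on P55, beside 40.6% and 26.8% of all genes, and 6 higher and 1 lower on P69, beside 35.2% and 29.4%. Between the later arrays 1 was higher and 2 lower on P69 at 1.5-fold, beside 16.7% and 27.1%. No member passed 10-fold, which 1.18% of all genes passed upwards and 0.344% downwards on P55, 0.714% and 0.5% on P69, and 0.0898% and 0.154% between the later arrays.

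Other genes of the bulge, chosen apart from the 10, had medians of 0.61 on P55 and 0.59 on P69, with 6 of 15 at least 2-fold higher and 1 lower on P55, and 5 higher and 0 lower on P69. Krt15, a keratin of bulge and basal cells, stood at 0.63, 4.54 and 3.98, higher by 3.91 and 3.35. Vdr, the vitamin D receptor, stood at -3.92, 0.93 and -0.30. Cd200 ran in both directions, at -1.25 on P55 and 1.68 on P69. The upper follicle list had medians of 1.22 and 1.13, with 4 of 8 at least 2-fold higher on either array. Krt17 was higher by 3.65 and 2.10, while Klk10 differed by -0.77 and -0.92. Of the 8 genes, 5 lay above 0 on P55 and 7 on P69. The sebaceous list had medians of 1.27 and 0.87, with 4 of 8 at least 2-fold higher on either. Of all genes, 29.2% were higher by 2-fold or more on P55 and 22.4% on P69, and 16.8% and 20.5% were lower. For so few genes the bulge counts lie near the higher shares. The same shares stand beside the 2-fold counts of the other lists against P42.

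Genes of the basal and suprabasal epidermis, which mark keratinocytes at large, were higher on the same arrays as the follicle genes, with larger medians. Of 12 basal genes, all were well above background on all 3 arrays, with medians of 2.31 and 1.99. At least 2-fold higher were 7 on P55 and 8 on P69, beside 29.2% and 22.4% of all genes. Syt8 was the 1 gene of the list lower by 2-fold or more, at -2.37 and -3.12. Krt5 differed by 3.97 and 3.32 and Krt14 by 3.13 and 2.88, while Itga6 differed by 0.01 and 0.06. Trp63, the basal lineage factor, differed by 0.01 and -0.68 on its brighter probe and by 3.15 and 4.04 on the other. Of 11 suprabasal genes with a value, 7 were at least 2-fold higher on both later arrays, beside 15.9% of all genes. The list medians were 3.29 and 3.00, and the other 4 genes were below 0 on both. Of those, Tgm3, a transglutaminase of the cornified layer, differed by -2.04 and -2.17, Dsc1, a desmosomal cadherin, by -1.60 and -0.88, Tgm1 by -0.84 and -0.30 and Ivl by -0.77 and -0.07. Lor, a cornified envelope protein, differed by 4.96 and 6.09. The summed basal level was 8.12, 8.44 and 7.84 on the log2 scale, and is led by the brighter Trp63 probe. The summed suprabasal level was 5.64, 5.66 and 5.35, and on P42 is led by Tgm3 at 5.49. Whether keratinocyte RNA entering the sort accounts for the follicle genes was not tested.

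**Figure D4:**
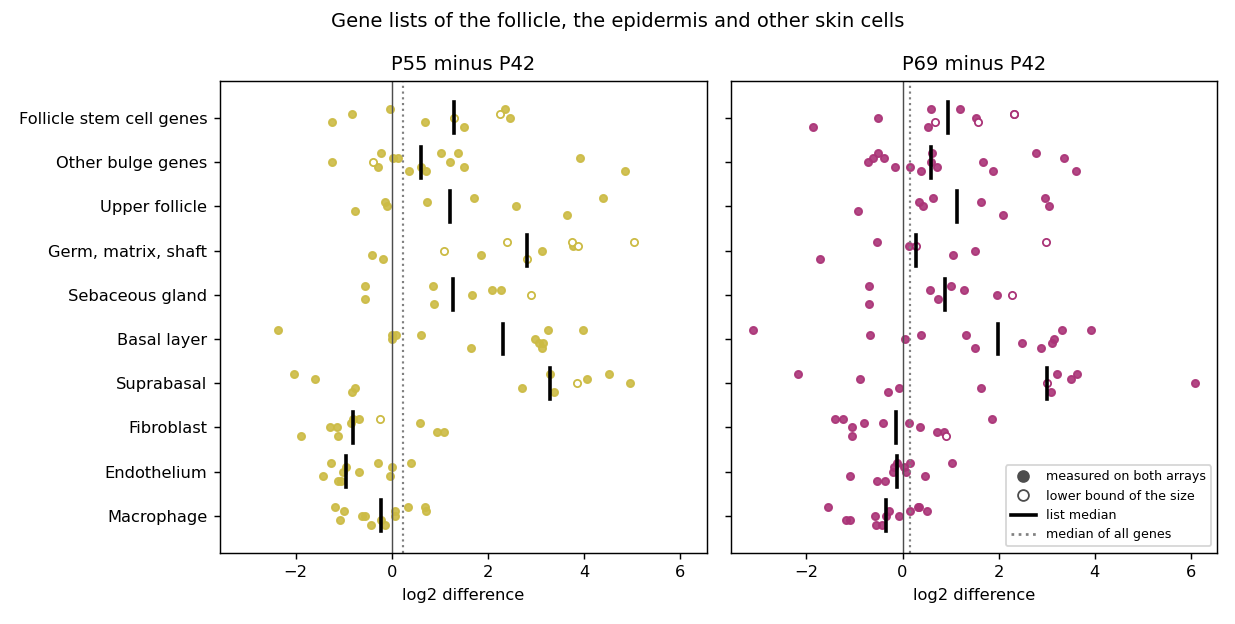
Difference from P42 of every gene of 10 lists, on the log2 scale, for P55 on the left and P69 on the right; each point is 1 gene, open points are bounds, black bars are list medians and the dotted line is the median of all genes. The suprabasal and basal medians lie farther right than the follicle stem cell median of 1.30 and 0.94, and the macrophage median lies near -0.23 and -0.35.

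Most genes of the growing follicle with a value differed by 2-fold or more between the later arrays. Of 12 genes of the hair germ, matrix and shaft, 11 were well above background on P55, 7 on P69 and 5 on P42. The shaft and inner root sheath keratins Krt35, Krt71, Krt25 and Krt75 were well above background on P55 alone. Krt35 stood at -5.08 on P42, 0.60 on P55 and -6.56 on P69, at least 32.9-fold higher on P55 than on P42. The P-cadherin gene Cdh3, of the hair germ and basal layer, was at least 13.4-fold higher on P55 and at least 7.96-fold higher on P69 than on P42. Lef1, a Wnt effector of the germ and matrix, was lower on P69, by -1.71. P69 was lower than P55 by 2-fold or more for 8 of the 11 of these genes with a value and higher for 0. Krt35, Krt71, Krt25 and Krt75 had a value only because P55 detected them, and could only come out lower on P69. Over the 7 genes measured on both arrays the median was -1.29. Of all genes, 10.8% were lower and 7.77% higher. For the 10 stem cell genes both counts were 0, which is near those shares for so few genes, and Gli1 lay just under the cut at -0.94.

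**Figure D5:**
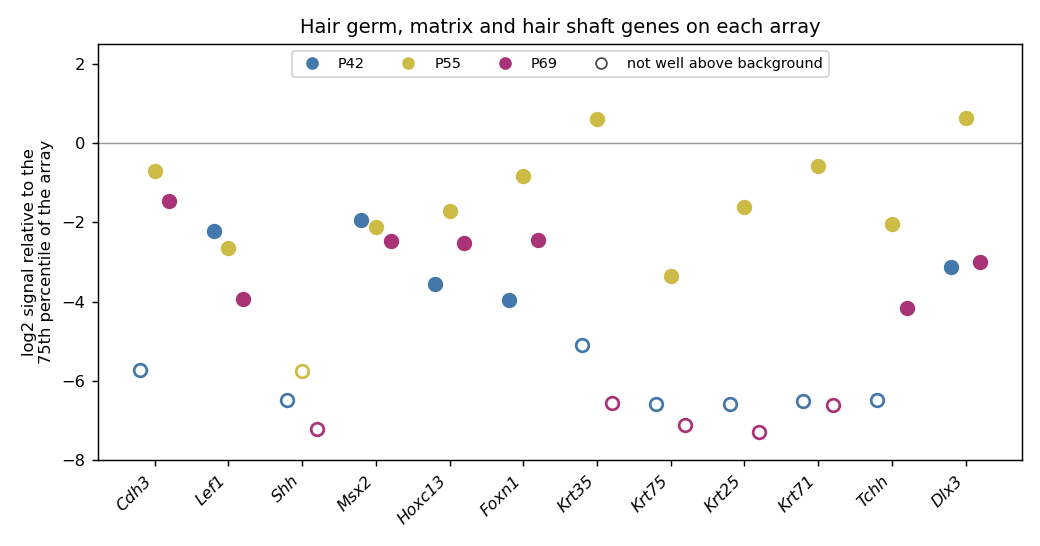
Level of 12 genes of the hair germ, matrix and shaft on each array, as log2 signal relative to the array's 75th percentile; open points were not well above background. Krt35, Krt71, Krt25 and Krt75 have closed points on P55 alone, and Shh has none.

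The list medians of endothelium, fibroblasts and macrophages did not lie above P42. The melanocyte median did, at 1.28 on P55 and 0.08 on P69. The mast cell median was -0.49 on P55 and 0.10 on P69, and the Schwann cell median -0.19 and 0.08. Endothelial genes, relevant to Cd34, Nfatc1 and Foxc1, had medians of -0.95 on P55 and -0.11 on P69, with 0 of 11 at least 2-fold higher and 5 lower on P55, and 1 higher and 1 lower on P69. Their summed level was 5.53, 5.02 and 5.41. Pecam1 differed by -0.95 and -0.19 and Cdh5 by -0.28 and 1.02. Fibroblast genes had medians of -0.82 and -0.14 and a summed level of 6.65, 5.64 and 5.71, and their directions were mixed. At 2-fold, 1 was higher and 4 were lower on either later array, and 6 of 12 lay above 0 on P69. Col1a1 differed by -0.82 and -1.24, whereas Col6a1 differed by 1.09 and 0.72 and Mfap5 by 0.94 and 0.87. Pdgfra was not well above background on P42 or P55 and was at least 1.88-fold higher on P69 than on P42. Of 13 macrophage genes, 0 were at least 2-fold higher, and 2 were lower on P55 and 3 on P69, with a summed level of 9.89, 9.70 and 9.17. That sum is led by the brightest Itgam probe, at 8.95, 8.73 and 7.85. The part of these cell types in the follicle gene values was not tested.

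Genes whose differences lay nearest each member's were sought among 133 genes of the other lists detected on all 3 arrays, by distance in the 2 differences from P42, which are only 3 arrays deep. Gli1 lay nearest Sbsn (distance 0.28), Pmel and Scd1. Lrig1 had no near neighbour among these 133 list genes, the closest being Pmel at 0.50, followed by Cdon and Itgb4. Lgr6 lay nearest the mast cell gene Tpsb2 and the macrophage gene Cd163, Cd34 nearest the endothelial gene Esam, and Lhx2 nearest Egr2. Nfatc1 lay nearest Twist2 by its brighter probe and Tcf7l1 nearest Adgre1. A close neighbour is common: of 13047 genes detected on all arrays, 27 lay within the spot error of Lrig1, 62 of Gli1, 55 of Lgr6 and 278 of Tcf7l1.

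Wnt and R-spondin genes and relatives of the members were mixed. The R-spondin list had medians of 0.63 and 0.62, with Rnf43, a ligase that removes Wnt receptors, higher by 3.98 and 3.51 and Axin2, a Wnt target, higher by 1.40 and 0.48 on its brighter probe and by 1.37 and 2.08 on the other. Relatives of the 10 genes had medians of -0.09 and -0.08, with 3 higher and 2 lower on P55 and 2 higher and 3 lower on P69. Nfatc3 was higher by 1.68 and 1.98, whereas Lrig2 was lower, at -1.51 and -1.39, against the direction of Lrig1.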

How the data were processed

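The deposited scanner files, made by the authors with Agilent Feature Extraction 10.7.3.1, hold spot intensity values. Control spots and outlier spots (162 to 281 an array) were left out, spots of a probe were averaged, and each array's processed signal was divided by its own 75th percentile before log2. RNA had been amplified by whole-transcriptome amplification before labelling. The authors' deposited value table holds log2 values of 36409 probes, centred by gene, whose method is not given in the sources used here, and served as an alternative. Its columns were set against the scanner files.

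Each gene was represented by its brightest probe. No test was possible with 1 array per stage, so called means past 2-fold, or past 2-fold as a bound. All 3 arrays were on the same slide. Genes were named through RefSeq transcripts (GRCm38.p6 table), and promoters came from RefSeq for the 6 members matched. Windows on a single chromosome were left out of the member search but kept in the background. Named were all members with every probe, up to 4 genes a list detected on all arrays with the largest mean difference from P42, and a fixed set of marker genes. Each member's 3 nearest list genes were named as well. Krt35, Krt71, Krt25, Krt75, Shh, Smo, Cd200, Klk10, Tgm1, Tgm3, Dsc1, Ivl, Syt8, Col6a1, Mfap5, Ppp3cb, Ppp3cc and the markers' remaining examples were named after their values were seen. The members, lists and motifs were chosen with earlier results of these data known. Scripts (Python 3.11.15, numpy 2.4.6, pandas 2.3.3, R 4.3.3, limma 3.58.1) were tested on simulated data. The alternatives were other scalings, background correction, filters, thresholds, probe choices, outlier spots kept and the later arrays exchanged; the dimmest probe was added after seeing the data.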

Additional observations from a re-analysis of the deposited data

How the results depend on the processing

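No paired analysis was possible because each stage had 1 array and the labels carry no replicate numbers; for the same reason no replicate could be left out. Of the counts and medians of the 10 genes recomputed under 15 alternatives, 118 stayed near the reported value and 41 moved. The 118 include counts of members well above background, which rescaling cannot change. They also include shifts such as 7 to 10 members detected on P42 and 5 to 7 members higher on P69. Most medians against P42 moved. The P69 against P55 median, reported as 0.03, took either sign near 0. On P55 against P42, 3 genes were higher when both arrays had to detect them and 0 at 10-fold. The lower count was 2 with the 75th percentile over detected probes, with quantile scaling and at 1.5-fold, and 0 with the array median, no scaling and 10-fold. The P55 median was 0.92 with detected probes, 1.68 with quantile, 1.86 with the median, 1.56 unscaled, 0.52 with normexp, 2.33 in the value table, 0.68 when detected on both arrays, 1.63 with positive and significant signal or no filter, 1.5 with outlier spots kept and 0.94 with the arrays exchanged. On P69 against P42, 8 genes were higher with the median or no scaling, 3 with normexp or detection on both arrays and 0 at 10-fold, and 0 were lower unscaled and at 10-fold. The P69 median was 0.73 with detected probes, 1.52 with quantile, 1.46 with the median, 2.10 unscaled, 0.62 with normexp, 2.41 in the value table, 0.58 when detected on both, 1.36 with positive and significant signal or no filter, 1.30 exchanged and 1.30 with the dimmest probe. On P69 against P55, 4 genes were higher unscaled, 1 higher and 2 lower at 1.5-fold, and the unscaled median was 0.93. Part of these shifts is common to all genes, whose P69 median against P42 was 1.33 unscaled and 0.66 with the array median. Lhx2, Lrig1 and Gli1 lay above 0 and Lgr6 below 0 in both comparisons under every alternative run, though not always past 2-fold. Sox9 and Foxc1 also lay above 0 wherever they had a value. They were not well above background on P42, so under that detection rule their sign was fixed in advance. Neither had a value when both arrays had to detect it. Nfatc1 and Cd34 took both signs, as did Tcf7l1 on P69. The number of arrays limits precision, and signals near background limit Sox9, Foxc1 and Lgr5.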

Other observations

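The calcineurin and NFAT signalling list, which holds the enzymes that activate Nfatc1, had medians of 0.96 on P55 and 0.89 on P69. At least 2-fold higher on both later arrays were 4 of 9 genes, beside 15.9% of all genes. Lower by 2-fold or more were 0 on P55 and 2 on P69, beside 16.8% and 20.5% of all genes. Ppp3ca and Ppp3r1, subunits of calcineurin, were higher by 1.27 and 1.12 on P55 and by 1.37 and 1.47 on P69. The subunit gene Ppp3cb differed by 0.26 and 0.71. Ppp3cc ran the other way, at least 1.53-fold lower on P55 and at least 2.75-fold lower on P69. Rcan1, a calcineurin inhibitor that NFAT induces, was higher by 1.32 and 1.17, whereas Nfat5 was lower on P69, at -1.77. The direction of Nfatc1 itself differed by probe.

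Genes of other follicle-associated cells were mixed. Among melanocyte genes Dct was higher by 1.58 and 2.37 and Pmel by 2.57 and 1.88, while Tyr differed by 0.31 and -1.0. Among Schwann cell genes Ngfr was lower by -2.27 and -3.16, and Mbp differed by 0.38 and 0.16. Among dermal papilla genes Crabp1 was lower by -1.97 and -2.49 and Alpl was higher by 1.61 and 1.60. Among mast cell genes Tpsb2 was lower by -1.17 and -2.06 and was the 1 gene past 2-fold, while Cma1 differed by 0.69 and 0.89 and Hdc by 0.12 and 0.07, and 4 of 6 lay above 0 on P69. With 1 array per stage these values carry no test.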
